A study of Mus musculus with 32 samples.

Results

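The libraries described here are 8 of the 32 RNA-seq libraries in the series: 4 from AML12 cells given DEX and taken at 25 h, and 4 from AML12 cells given DEX and taken at 17 h. They were chosen by the names of their columns in the AML12 count table. AML12 is a line derived from hepatocytes of a mouse that carried a transgene for human TGF-alpha, and the labels give its cell type as hepatocyte. The labels write the treatment only as DEX, without spelling it out, and give no dose and no event from which the hours are counted. The sample descriptions and column names write the hours with the prefix ZT. Another 8 AML12 libraries, 4 of control cells at 25 h and 4 of control cells at 17 h, were set beside them as controls of the same times. The remaining 16 libraries come from HL-1, a mouse line of heart muscle cells that the series' title sets beside AML12 in a co-culture system, and were not used here. Whether replicates are separate cultures is stated nowhere in the sources used here, so a p-value measures the spread between these libraries, which may be technical.

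The question the comparison addresses is how gene expression in DEX cells differs between the times, 2 times that the series' design text ties to rhythm. The mammalian circadian clock is a loop in which CLOCK and BMAL1 (the product of Arntl) switch on genes with E-boxes, among them those of the PER and CRY proteins, which then shut CLOCK and BMAL1 off. A second loop joins in, where REV-ERB proteins repress Arntl and ROR proteins activate it, and the outputs run through D-box factors such as DBP and TEF. In liver this loop times much of metabolism. A pulse of a glucocorticoid such as dexamethasone is a common way to set the clocks of cultured cells to one phase, and the activated glucocorticoid receptor also switches on its own targets and holds back inflammatory genes driven by NF-kB.

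Total counts were 16214890 to 17472840 per DEX 25 h library and 16041742 to 16571834 per DEX 17 h library, and 15032450 to 17409358 per control library. Of 27843 genes in the table, 14114 had enough counts to be tested. The hours separated the 8 DEX libraries along the first principal component, which held 65.5% of the variance. Replicate 2 of DEX 17 h stood apart from its group. A chi-square of its counts, divided by the degrees of freedom, gave 12.4 to 16.5 against each of the other 3, which reached 2.27 to 3.73 among themselves, and mitochondrially encoded genes took 2.65% of its counts, against 1.64% to 1.85% in the other 3 and 1.56% to 1.79% at 25 h. Replicate 4 of DEX 25 h lay nearest of its group to the 17 h libraries on that component, and its scaled chi-square was 3.64 to 4.69 against its group and 2.20 to 3.45 among the other 3. No pair of libraries matched within sampling noise.

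**Figure D1:**
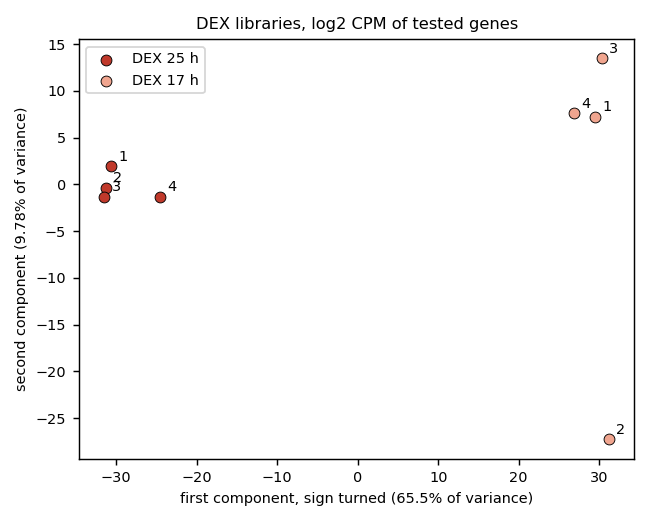
First and second principal component (percent of variance on the axes) of log2 CPM over the tested genes, with 1 point per DEX library and its replicate number; the sign of the first component was turned so that 25 h lies on the left. The 4 libraries of 25 h and the 4 of 17 h separate along the first component, replicate 4 of 25 h lies nearest to the 17 h side among its group, and replicate 2 of 17 h lies far from its group along the second component.

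The label hepatocyte was checked against marker genes. Of 20 hepatocyte markers, 17 were in the table, and 9 of these were under 1 CPM, among them Cps1 of the urea cycle and the receptor subunit genes Asgr1 and Asgr2. The markers summed to 497 to 522 CPM at 25 h and 370 to 408 CPM at 17 h. Of 8 bile duct markers, 5 were above 10 CPM, and the list summed to 4092 to 4346 CPM at 25 h and 3499 to 3714 CPM at 17 h. Of 10 mesenchymal markers, Vim alone was above 10 CPM, and the sums were 2374 to 2537 CPM at 25 h and 2344 to 2558 CPM at 17 h. The immune list (9 genes) summed to 13.1 to 14.6 CPM at 25 h and 7.98 to 11.0 CPM at 17 h, and the endothelial list (7 genes) to 3.17 to 4.75 CPM at 25 h and 2.96 to 3.99 CPM at 17 h. Cd3e, Ptprc, Pecam1 and Kdr were each under 1 CPM. The cardiomyocyte list (12 genes) summed to 64.8 to 72.6 CPM at 25 h and 52.6 to 57.7 CPM at 17 h, most of it Tnnt2, while Myh6, Myh7 and Tnni3 were under 1 CPM. Their part in the changes below was not tested.

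At 25 h against 17 h, DEX cells had higher RNA of most clock repressors, of the REV-ERB genes and of the D-box factors Dbp and Tef, of chemokine and NF-kB genes, and of 14 of 22 interferon-inducible genes tested. They had lower RNA of Arntl, of glucocorticoid-responsive genes, of the cell cycle, of cholesterol synthesis and of the ATF4 branch of the stress response. Of the 14114 genes tested, 7896 (55.9%) passed an adjusted p of 0.05 in edgeR's quasi-likelihood test with Benjamini-Hochberg adjustment, 3919 higher (27.8%) and 3977 lower (28.2%) at 25 h. At least 2-fold, 545 were higher and 314 lower, and the median log2 fold change over all tested genes was 0.00. For 3260 genes all 4 libraries of 25 h lay above all 4 of 17 h, and for 3265 all 4 lay below (23.1% each). Without both libraries that stood apart, 3901 genes were higher and 4088 lower. In bulk samples, fewer cells of a type and less RNA per cell cannot be told apart.

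In control cells the same interval gave 6144 calls (43.5%), 3119 higher (22.1%) and 3025 lower (21.4%) at 25 h, with 168 and 155 of them at least 2-fold. The change in DEX cells minus the change in control cells passed the test in 2304 genes (16.3%), above 0 in 1122 (7.95%) and below 0 in 1182 (8.37%). Scaled by total counts alone, without TMM, that difference was above 0 in 1412 and below 0 in 857, and the control change was higher in 2530 and lower in 3855. Without both libraries that stood apart, the difference was above 0 in 1353 genes and below 0 in 1482. A log2 fold change below is 25 h over 17 h, 4 libraries against 4, and a difference of changes is the DEX value minus the control value. The SE comes from the fit of all 16 AML12 libraries, so control libraries also enter its estimate of the spread. CPM is a level scaled to the library's total and not corrected for gene length, so levels are not compared between genes. For every gene whose DEX libraries are listed singly below, except Cry1, the 4 libraries of 25 h lay all above or all below the 4 of 17 h. Counts within a list can be set beside the shares over all tested genes. In DEX cells these were 27.8% higher and 28.2% lower, and in controls 22.1% and 21.4%.

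Clock genes changed in both directions. Of 20 in the core clock list, 19 were in the table and 17 were tested, and 11 were higher and 4 lower at 25 h, with a median log2 fold change of 0.85 against 0.00 over all tested genes. In control cells 6 were higher and 2 lower, with a median of 0.05. The difference of changes was above 0 in 9 and below 0 in 4.

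Among the activators, Arntl (chr7:113207465-113314126, plus strand in GRCm38), which encodes BMAL1, had 13.8, 13.9, 14.0 and 15.8 CPM in the DEX 25 h libraries, against 39.9, 45.2, 32.5 and 37.3 CPM in the DEX 17 h libraries. All 4 libraries of 25 h lay below those of 17 h, with a log2 fold change of -1.43 ± 0.08 (SE; edgeR adjusted p = 2.09e-14). The control libraries lay between the DEX groups, with 20.4, 20.5, 19.7 and 16.6 CPM in the control 25 h libraries, against 20.2, 19.9, 20.3 and 18.4 CPM in the control 17 h libraries, and they gave a log2 fold change of -0.03 (edgeR adjusted p = 0.801). The difference of changes was -1.40 ± 0.12 (edgeR adjusted p = 7.73e-10). Its partner Clock had 64.3, 65.9, 68.9 and 66.9 CPM at 25 h, against 73.8, 76.7, 70.8 and 76.5 CPM at 17 h, below at 25 h in all 4 libraries, with a small log2 fold change of -0.16 ± 0.05 (SE; edgeR adjusted p = 0.00596).

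The repressors did not move as 1 group. Per3 (chr4:151003652-151044665, minus strand) had 38.2, 32.2, 32.8 and 24.7 CPM in the DEX 25 h libraries, against 3.81, 3.99, 2.81 and 3.02 CPM in the DEX 17 h libraries. The groups did not overlap, and Per3 was 9.38-fold higher at 25 h, a log2 fold change of 3.23 ± 0.13 (SE; edgeR adjusted p = 1.82e-15). In controls it stood near its DEX 25 h level at both times, with 28.6, 31.4, 30.6 and 25.8 CPM in the control 25 h libraries, against 31.0, 32.3, 31.9 and 32.3 CPM in the control 17 h libraries. Per2 (chr1:91415982-91459324, minus strand) had 20.2, 20.5, 19.1 and 14.8 CPM at 25 h, against 4.48, 6.78, 4.64 and 5.68 CPM at 17 h, again with no overlap, and its log2 fold change of 1.79 ± 0.11 (SE; edgeR adjusted p = 3.87e-14) stood beside -0.18 in controls. Cry2 had 19.8, 17.3, 17.8 and 15.6 CPM at 25 h, against 9.01, 10.2, 7.63 and 10.1 CPM at 17 h, a log2 fold change of 0.93 ± 0.09 (SE; edgeR adjusted p = 4.88e-10). Ciart, whose product CHRONO binds BMAL1, had 3.11, 4.62, 3.23 and 4.09 CPM at 25 h, against 1.03, 1.58, 1.04 and 1.85 CPM at 17 h, with no overlap and a log2 fold change of 1.45 ± 0.20 (SE; edgeR adjusted p = 3.91e-07). Its change in controls was of a like size, 1.12, and the difference of 0.33 ± 0.29 (edgeR adjusted p = 0.503) did not pass the test.

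Per1 went the other way from the remaining PER genes. It had 49.4, 48.8, 44.7 and 57.9 CPM in the DEX 25 h libraries, against 93.1, 97.5, 90.1 and 90.7 CPM in the DEX 17 h libraries, all 4 lower at 25 h, with a log2 fold change of -0.89 ± 0.06 (SE; edgeR adjusted p = 1.41e-12). Control cells had 41.2, 45.3, 42.5 and 39.2 CPM in the control 25 h libraries, against 29.6, 32.7, 26.4 and 30.1 CPM in the control 17 h libraries, all 4 higher at 25 h, so that the difference of changes was -1.39 ± 0.09 (edgeR adjusted p = 4.65e-12). Cry1 overlapped between the times, with 7.16, 7.33, 8.32 and 4.58 CPM at 25 h, against 5.93, 5.13, 5.92 and 5.12 CPM at 17 h, and replicate 4 of 25 h was the lowest of the 8. Its log2 fold change of 0.31 ± 0.13 (SE; edgeR adjusted p = 0.0417) lost the call in DESeq2 (adjusted p = 0.0513), in limma-voom (0.0940) and in a fit of the 8 DEX libraries alone (0.0961). The Cry1 call was also lost without replicate 2 of 17 h (edgeR adjusted p = 0.0816), replicate 4 of 17 h (0.107), replicate 1 of 25 h (0.0952), replicate 2 of 25 h (0.113) or replicate 3 of 25 h (0.211). Its change in controls was -0.35 (edgeR adjusted p = 0.0116).

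Both REV-ERB genes, whose proteins repress Arntl, were higher at 25 h. Nr1d1 (chr11:98767932-98775333, minus strand) had 38.4, 35.6, 36.5 and 52.5 CPM in the DEX 25 h libraries, against 9.19, 12.7, 9.09 and 10.3 CPM in the DEX 17 h libraries, with replicate 4 of 25 h the highest and no overlap. Its log2 fold change of 1.98 ± 0.12 (SE; edgeR adjusted p = 1.13e-10) compared with 0.34 in controls, a difference of 1.64 ± 0.17 (edgeR adjusted p = 1.07e-06). Nr1d2 had 67.4, 67.3, 72.0 and 64.6 CPM at 25 h, against 17.0, 17.0, 15.1 and 20.2 CPM at 17 h, a log2 fold change of 1.97 ± 0.07 (SE; edgeR adjusted p = 1.88e-19), against 0.12 in controls (edgeR adjusted p = 0.106). Of the ROR genes, which encode activators of Arntl, Rorb did not pass the test at 0.16 ± 0.08 (edgeR adjusted p = 0.0991), although it did without replicate 2 of 17 h, at 0.25 (0.0052). Rora had too few counts to be tested.

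The D-box factors held the largest rise of all named genes. Dbp (chr7:45705088-45710203, plus strand) had 14.3, 14.7, 13.9 and 14.5 CPM in the DEX 25 h libraries, against 0.665, 0.317, 0.549 and 0.802 CPM in the DEX 17 h libraries. Every library of 25 h lay above 13 CPM and every library of 17 h under 1 CPM, a 24.2-fold higher level and a log2 fold change of 4.60 ± 0.17 (SE; edgeR adjusted p = 2.76e-19). Control cells held 8.63, 8.07, 8.98 and 10.5 CPM in the control 25 h libraries, against 7.51, 10.5, 8.17 and 8.90 CPM in the control 17 h libraries, which overlap, with a log2 fold change of 0.05 and a difference of changes of 4.55 ± 0.21 (edgeR adjusted p = 4.81e-16). Tef (chr15:81802421-81826863, plus strand) had 85.3, 86.0, 90.9 and 79.5 CPM in the DEX 25 h libraries, against 12.5, 14.3, 12.5 and 14.6 CPM in the DEX 17 h libraries, 6.33-fold higher at 25 h (log2 fold change 2.66 ± 0.06, edgeR adjusted p = 3.79e-24). In controls Tef ran the other way, with 56.9, 60.4, 62.8 and 59.4 CPM in the control 25 h libraries, against 90.6, 89.5, 91.7 and 90.1 CPM in the control 17 h libraries, and the difference was 3.26 ± 0.08 (edgeR adjusted p = 2.59e-23). Nfil3, which represses at D-boxes, had 36.1, 40.4, 39.6 and 32.6 CPM at 25 h, against 49.5, 51.4, 48.1 and 44.9 CPM at 17 h, all lower at 25 h (log2 fold change -0.38 ± 0.06), whereas it was higher in controls at 0.30 (edgeR adjusted p = 0.00022).

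Of the DEC genes, which encode E-box repressors, Bhlhe40 was higher at 0.39 in DEX cells and 0.37 in controls. Bhlhe41 did not pass the test at -0.18 (edgeR adjusted p = 0.151), though it did without replicate 4 of 25 h, at -0.27 (0.0379). The strand setting of the counting is not given in the sources used here, so reads of genes that overlap cannot be told apart. Dbp overlaps Sphk2, which had a log2 fold change of 0.23 in DEX cells. Nr1d1 overlaps Thra (0.15), and Per3 overlaps Camta1 (-0.05, edgeR adjusted p = 0.697).

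**Figure D2:**
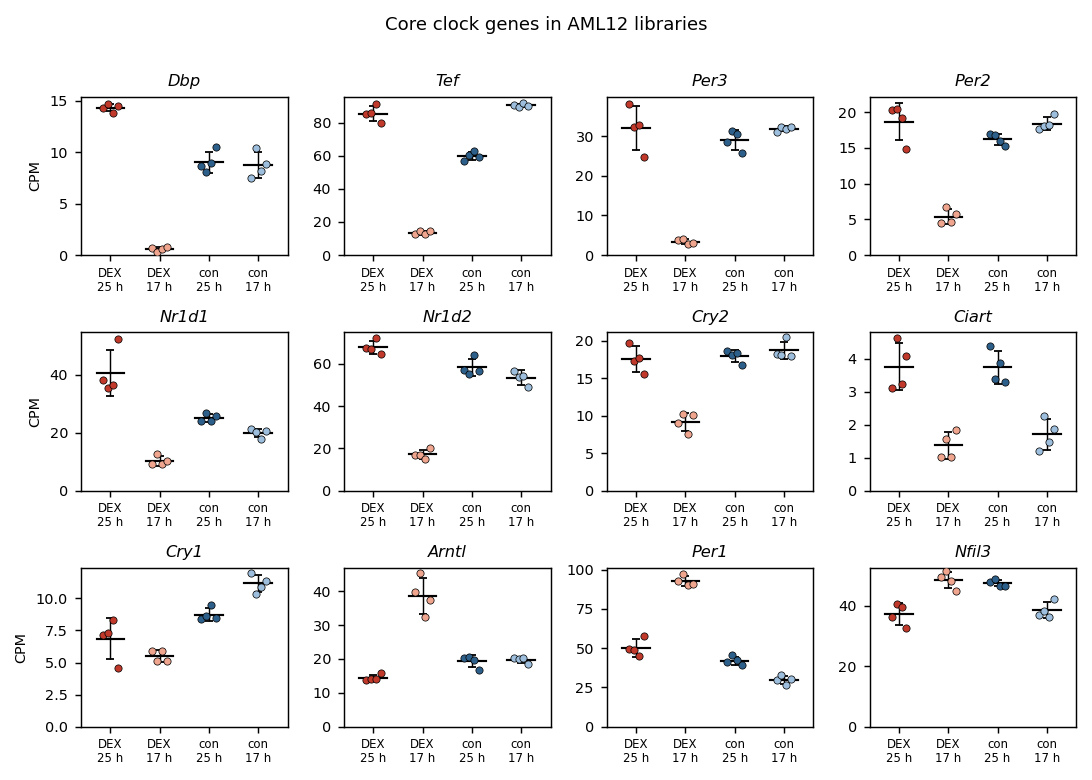
CPM (linear axis from 0) of 12 core clock genes in each AML12 library, with DEX 25 h, DEX 17 h, control 25 h and control 17 h from left to right; points are libraries, the horizontal line is the mean and the error bar the SD over 4 libraries. In Dbp, Tef, Per3, Per2, Nr1d1 and Nr1d2 the DEX 17 h libraries lie below all other libraries shown, and in Arntl and Per1 they lie above all others.

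Promoters of 6 clock genes that passed the test in DEX cells and held a clock motif are shown, 3 of genes that were higher at 25 h and 3 of genes that were lower. RefSeq promoters on GRCm38.p6, from 250 bases before to 50 bases after a start, were found for 14 of the 17 tested clock genes, in 20 entries. Both strands were searched for the E-box CACGTG, held by 7.15% of all 32851 promoter entries of this length, the D-box TTANGTAA (2.32%) and the ROR element ANTNGGTCA (2.24%). Capitals mark the matches, which are letters found in these windows and not shown binding.
Per3 promoter, chr4:151044616-151044915, minus strand: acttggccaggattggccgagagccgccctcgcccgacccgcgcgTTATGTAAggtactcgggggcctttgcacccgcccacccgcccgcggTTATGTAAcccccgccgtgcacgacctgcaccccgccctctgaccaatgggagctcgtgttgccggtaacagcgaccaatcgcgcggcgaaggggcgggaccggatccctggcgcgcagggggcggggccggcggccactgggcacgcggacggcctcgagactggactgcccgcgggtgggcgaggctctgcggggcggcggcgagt
Tef promoter, chr15:81802423-81802722, plus strand: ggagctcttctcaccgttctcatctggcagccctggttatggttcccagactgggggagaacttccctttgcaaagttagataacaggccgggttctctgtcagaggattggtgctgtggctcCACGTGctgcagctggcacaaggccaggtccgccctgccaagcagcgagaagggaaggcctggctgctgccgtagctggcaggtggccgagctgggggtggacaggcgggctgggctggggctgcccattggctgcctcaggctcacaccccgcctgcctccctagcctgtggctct
Ciart promoter, chr3:95882179-95882478, minus strand: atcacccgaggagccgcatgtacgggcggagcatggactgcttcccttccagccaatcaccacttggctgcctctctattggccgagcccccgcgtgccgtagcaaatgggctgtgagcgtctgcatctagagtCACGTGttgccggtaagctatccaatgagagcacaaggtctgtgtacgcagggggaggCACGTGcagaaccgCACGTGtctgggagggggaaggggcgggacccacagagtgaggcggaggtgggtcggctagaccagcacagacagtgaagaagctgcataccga
Per1 promoter, chr11:69098699-69098998, plus strand: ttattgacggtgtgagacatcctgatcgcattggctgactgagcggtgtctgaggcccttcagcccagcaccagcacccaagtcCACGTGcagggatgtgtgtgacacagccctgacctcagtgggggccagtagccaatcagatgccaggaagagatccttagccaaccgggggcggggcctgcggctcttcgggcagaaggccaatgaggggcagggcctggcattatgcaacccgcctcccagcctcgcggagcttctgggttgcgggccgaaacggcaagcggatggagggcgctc
Arntl promoter, chr7:113207261-113207560, plus strand: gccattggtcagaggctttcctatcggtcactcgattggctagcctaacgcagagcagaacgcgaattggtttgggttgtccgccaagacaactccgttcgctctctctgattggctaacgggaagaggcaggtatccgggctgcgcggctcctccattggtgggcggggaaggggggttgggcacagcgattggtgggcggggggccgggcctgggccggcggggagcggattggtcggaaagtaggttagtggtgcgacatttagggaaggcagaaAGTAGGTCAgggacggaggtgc
Nfil3 promoter, chr13:52980990-52981289, minus strand: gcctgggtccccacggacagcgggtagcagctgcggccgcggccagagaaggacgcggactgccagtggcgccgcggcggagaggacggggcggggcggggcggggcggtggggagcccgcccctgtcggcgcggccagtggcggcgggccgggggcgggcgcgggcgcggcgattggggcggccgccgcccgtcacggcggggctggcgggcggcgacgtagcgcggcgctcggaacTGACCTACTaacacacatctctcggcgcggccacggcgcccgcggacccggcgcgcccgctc
Per3, which was higher at 25 h, held a pair of D-boxes whose first bases lie at -205 and -158 from the start. Tef, also higher at 25 h, held an E-box at -127 in the entry shown and at -138 in its other entry. Ciart held 3 E-boxes, at -116, -58 and -44. Cry1, not shown, held 1 at -60, and Per1, lower at 25 h, held 1 at -166 in the first of its entries. Arntl and Nfil3, both lower at 25 h, each held 1 ROR element, Arntl at 28 in the second of its entries and Nfil3 at -12 on the reverse strand, written here as read along the gene. Of the genes that did not pass the test, Bhlhe41 held 1 E-box and Rorb 1 D-box in 1 of its entries, also not shown. In the windows of Dbp, Nr1d1, Nr1d2, Cry2 and Clock none of these 3 motifs was found. Among genes at least 2-fold higher at 25 h with a promoter entry (286), 8.04% held an E-box, 3.5% a D-box and 2.45% a ROR element. Among those at least 2-fold lower (204), the shares were 10.8%, 1.96% and 3.92%, and among all tested genes with an entry (9750), 11.7%, 1.91% and 2.16%. The glucocorticoid receptor half-site AGAACA, also searched, was held by 19.9% of those higher, 19.1% of those lower and 14.9% of all tested. The CRE TGACGTCA was held by 0.699%, 2.45% and 3.73%, and the E2F site TTTGGCGC by 0%, 0.98% and 1.11%. Of these other motifs, the clock gene entries held only 1 half-site, in the Tef entry not shown.

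Genes known in liver as clock outputs mostly fell. Of 11 in the list, 9 were tested, and 1 was higher and 8 lower at 25 h, with a median log2 fold change of -0.24. In controls 1 was lower and none higher. The difference was above 0 in 1 and below 0 in 4. Usp2, a ubiquitin protease gene, had 1.53, 1.50, 1.24 and 1.59 CPM at 25 h, against 3.27, 3.61, 2.62 and 3.58 CPM at 17 h, a log2 fold change of -1.15 ± 0.16 (SE; edgeR adjusted p = 5.52e-07), against -0.11 in controls. Por, which encodes the electron donor of cytochrome P450 enzymes, had a small log2 fold change of -0.20 ± 0.05. Tspan4, a tetraspanin gene, was the 1 member higher, at 0.56 ± 0.05, against -0.10 in controls. Of 8 clock kinases and ligases, 3 were higher and 2 lower in each treatment. Csnk1e and Csnk1d, which encode the kinases that phosphorylate PER proteins, were higher by 0.26 and 0.25, and the ligase gene Btrc by 0.34. The ligase gene Fbxl21 had 5.93, 6.00, 5.65 and 6.47 CPM at 25 h, against 11.9, 13.5, 10.2 and 10.6 CPM at 17 h, a log2 fold change of -0.94 ± 0.11 (SE; edgeR adjusted p = 1.12e-08), with -0.93 in controls.

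Glucocorticoid-responsive genes were mostly lower at 25 h in DEX cells. Of 33 in the list, 25 were tested, and 6 were higher and 18 lower, with a median log2 fold change of -0.69. In controls 10 were higher and 5 lower, with a median of 0.19. The difference of changes was above 0 in 1 and below 0 in 17.

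Sgk1 (chr10:21882184-21999903, plus strand), a kinase gene named for its induction by serum and glucocorticoids, had 29.3, 31.8, 34.7 and 33.8 CPM in the DEX 25 h libraries, against 290.2, 314, 265 and 278 CPM in the DEX 17 h libraries. It was 8.86-fold lower at 25 h, a log2 fold change of -3.15 ± 0.07 (SE; edgeR adjusted p = 5.34e-20). It had 32.3, 28.9, 35.1 and 33.4 CPM in the control 25 h libraries, against 62.9, 54.7, 62.0 and 50.9 CPM in the control 17 h libraries, and the difference was -2.32 ± 0.10 (edgeR adjusted p = 6e-14). Fkbp5, whose product is a co-chaperone that damps the glucocorticoid receptor, had 140.2, 136, 141 and 162 CPM at 25 h, against 374, 314, 375 and 374 CPM at 17 h, a log2 fold change of -1.31 ± 0.05 (SE; edgeR adjusted p = 5.93e-18), and its 4 libraries of 25 h still lay above the controls, which ranged from 96.9 to 107 CPM. Dusp1, which encodes a phosphatase of MAP kinases, had 25.9, 24.2, 27.3 and 28.6 CPM at 25 h, against 70.7, 63.0, 67.0 and 71.1 CPM at 17 h, a log2 fold change of -1.36 ± 0.06 (SE; edgeR adjusted p = 2.56e-17). Its controls ranged from 24.5 to 32.6 CPM, a span that holds 3 of the 4 DEX libraries of 25 h.

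Zbtb16 (chr9:48654297-48836222, minus strand), which encodes the transcription factor PLZF, had 0.293, 0.173, 0.124 and 0.305 CPM in the DEX 25 h libraries, against 13.7, 12.0, 13.1 and 13.8 CPM in the DEX 17 h libraries. That is 15 counts over the 4 libraries of 25 h and 853 over those of 17 h, 56.7-fold lower at 25 h (log2 fold change -5.82 ± 0.19, edgeR adjusted p = 2.26e-17). In control cells Zbtb16 had 0 counts in all 8 libraries, which allows up to 0.0457 CPM at 25 h and 0.0466 CPM at 17 h (3 counts over a group, counting error only), and edgeR's difference of changes could not be fitted.

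Some genes of this list moved in opposite directions in DEX and control cells. Tsc22d3, which encodes the anti-inflammatory leucine zipper protein GILZ, had 62.3, 59.5, 62.4 and 66.7 CPM in the DEX 25 h libraries, against 120.2, 122, 114 and 117 CPM in the DEX 17 h libraries. In controls it had 52.2, 55.6, 56.6 and 53.5 CPM in the control 25 h libraries, against 33.9, 37.1, 33.6 and 37.7 CPM in the control 17 h libraries. The difference was -1.53 ± 0.07 (edgeR adjusted p = 3.82e-16). Klf9, a transcription factor gene, fell by 0.83 on the log2 scale in DEX cells, against a rise of 0.31 in controls, a difference of -1.14 ± 0.07 (edgeR adjusted p = 3.04e-13). For Zfp36, whose product speeds the decay of cytokine mRNAs, the values were -0.69 in DEX cells and 0.98 in controls. Tsc22d3, Klf9 and Zfp36 were named after their values were seen. Angptl4, whose product inhibits lipoprotein lipase, was higher in DEX cells at 0.86 and in controls at 0.77.

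Chemokine genes and other NF-kB targets were higher at 25 h almost without exception. Of 34 in the list, 29 were tested, and 28 were higher and none lower, with a median log2 fold change of 1.11. In controls 22 were higher and none lower, with a median of 0.54, and the difference was above 0 in 21 and below 0 in none. The 1 gene that did not pass in DEX cells was Cxcl16, at 0.28 (edgeR adjusted p = 0.378).

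Ccl20 (chr1:83116766-83119167, plus strand), a chemokine gene of epithelial cells, had 154, 153, 158 and 128 CPM in the DEX 25 h libraries, against 17.8, 16.7, 16.3 and 22.2 CPM in the DEX 17 h libraries. The groups lay far apart, with replicate 4 the lowest of 25 h, and the gene was 8.12-fold higher, a log2 fold change of 3.02 ± 0.09 (SE; edgeR adjusted p = 1.12e-16). Controls had 129, 123, 139.9 and 130.3 CPM in the control 25 h libraries, against 85.0, 82.6, 81.8 and 94.7 CPM in the control 17 h libraries, a difference of 2.42 ± 0.11 (edgeR adjusted p = 3.18e-12). Vcam1, an adhesion molecule gene, had 283, 299.6, 323 and 283 CPM at 25 h, against 54.7, 66.0, 58.5 and 66.4 CPM at 17 h, a log2 fold change of 2.28 ± 0.06 (SE; edgeR adjusted p = 5.59e-19), against 0.79 in controls. Csf1, which encodes a growth factor of macrophages, had 1112, 1108, 1131 and 1003 CPM at 25 h, against 302, 345, 324 and 339.6 CPM at 17 h, a log2 fold change of 1.73 ± 0.05 (SE; edgeR adjusted p = 1.25e-21), against 0.98 in controls. Cxcl5, a chemokine gene that attracts neutrophils, had 2049, 1935, 2052 and 1718 CPM at 25 h, against 734, 806, 789 and 810.5 CPM at 17 h, a log2 fold change of 1.30 ± 0.05 (SE; edgeR adjusted p = 2.25e-18). In controls Cxcl5 did not pass the test at -0.09, and its 8 control libraries lay between 1944 and 2296 CPM. The inhibitor of apoptosis gene Birc3 was higher by 1.11, and the platelet chemokine gene Ppbp, outside the list, had 16.1, 15.1, 15.8 and 11.3 CPM at 25 h, against 2.60, 1.90, 2.20 and 2.90 CPM at 17 h, a log2 fold change of 2.60 ± 0.13 (SE; edgeR adjusted p = 3.16e-16), against 1.50 in controls.

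**Figure D3:**
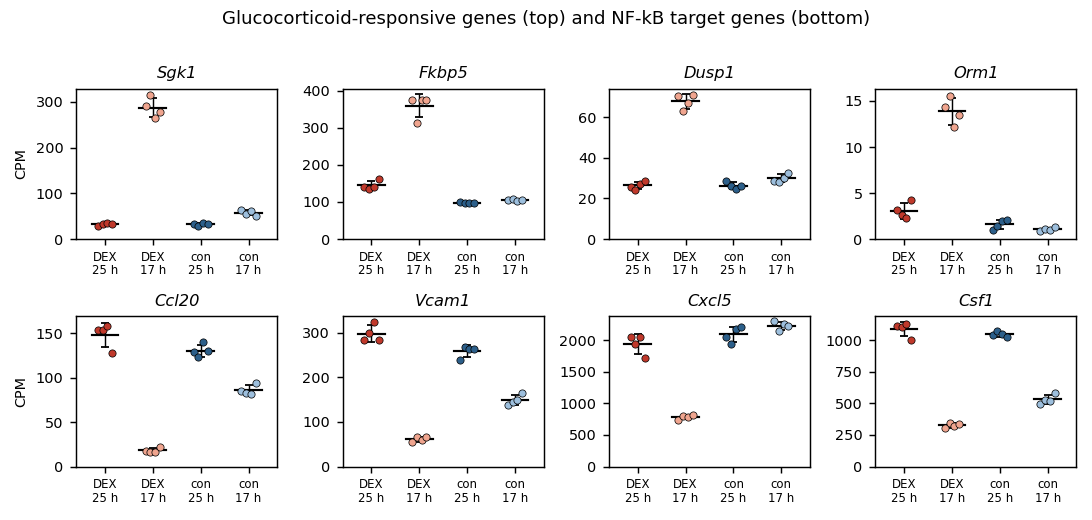
CPM (linear axis from 0) in each AML12 library, with DEX 25 h, DEX 17 h, control 25 h and control 17 h from left to right, for 4 glucocorticoid-responsive genes (top) and 4 NF-kB target genes (bottom); points are libraries, lines means and bars SD over 4 libraries. The DEX 17 h libraries lie above the other 3 groups in all 4 genes of the top row and below them in all 4 genes of the bottom row.

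Interferon-inducible genes were higher in part. Of 30, 22 were tested, with 14 higher and 1 lower at 25 h and a median of 0.73. In controls 7 were higher and 1 lower, with a median of 0.19, and the difference was above 0 in 7 and below 0 in 1. The count of lower genes was 2 without any 1 of the DEX libraries, without both that stood apart and without the low-count filter. Gbp2, a guanylate-binding GTPase gene, had 5.87, 6.93, 7.83 and 4.76 CPM at 25 h, against 1.94, 2.98, 1.83 and 1.67 CPM at 17 h, a log2 fold change of 1.59 ± 0.16 (SE; edgeR adjusted p = 1.48e-09), against 0.27 in controls. Parp14 was higher by 1.25, Ddx58, which encodes the RNA sensor RIG-I, by 0.75 and Irf9, a subunit of the factor that answers type I interferon, by 0.63. Gbp3 at 2.57 ± 0.38 and Tgtp1 at 2.87 ± 0.37 were among the 15 largest rises, but each stayed under 2 CPM in all DEX libraries and both have close paralogs that can share reads.

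Immediate early genes went in both directions, as did tested genes as a whole (27.8% higher and 28.2% lower in DEX cells). Of 24 in the list, 21 were tested, with 8 higher and 8 lower at 25 h and a median of -0.09, against 9 higher and 5 lower in controls (median 0.22). The difference was above 0 in 4 and below 0 in 10. Ier3, an early gene that guards against cell death, had 391, 374, 376 and 336 CPM at 25 h, against 133, 165, 148 and 131 CPM at 17 h, a log2 fold change of 1.36 ± 0.06 (SE; edgeR adjusted p = 1.74e-15). Fosl1, which encodes the AP-1 subunit FRA1, had 30.7, 30.4, 28.8 and 29.8 CPM at 25 h, against 76.2, 93.0, 81.2 and 68.0 CPM at 17 h, a log2 fold change of -1.41 ± 0.07 (SE; edgeR adjusted p = 6.12e-15), against -0.37 in controls. Junb, another AP-1 subunit gene, was higher by 0.83 in DEX cells and 0.69 in controls.

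Targets of YAP/TEAD and SRF, factors that answer to tension in the actin cytoskeleton, were mostly higher. Of 28, 25 were tested, with 20 higher and 2 lower in DEX cells (median 0.49) and the same counts in controls (median 0.36). The difference was above 0 in 10 and below 0 in 4. Ankrd1, a YAP target whose product binds sarcomeres in muscle, had 1090.1, 1162, 1186 and 1011 CPM at 25 h, against 439, 485, 444 and 428 CPM at 17 h, a log2 fold change of 1.31 ± 0.05 (SE; edgeR adjusted p = 5.32e-19), against 0.40 in controls. Cyr61, which encodes a matrix-associated protein, was higher by 1.10, the kinase gene Nuak2 by 0.93 and Tpm1, a tropomyosin gene, by 0.82. Ctgf, a member of the same family of secreted proteins as Cyr61, went the other way, with 72.9, 67.0, 72.7 and 89.6 CPM in the DEX 25 h libraries, against 422, 404, 429.6 and 402 CPM in the DEX 17 h libraries. Its log2 fold change of -2.46 ± 0.08 (SE; edgeR adjusted p = 1.21e-13) compared with -0.75 in controls, a difference of -1.70 ± 0.12 (edgeR adjusted p = 1.46e-08). Cnn1, which encodes calponin of smooth muscle, had 11.7, 10.9, 10.9 and 5.37 CPM at 25 h, against 1.15, 0.887, 0.732 and 1.11 CPM at 17 h, a log2 fold change of 3.32 ± 0.24 (SE; edgeR adjusted p = 2.41e-10) in which replicate 4 of 25 h was the lowest of its group. Cnn1 was also higher at 25 h in controls, by 1.91. The muscle actin gene Acta1 was higher by 2.85 ± 0.38 from under 1 CPM at 17 h, and by 2.36 in controls.

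Genes of the extracellular matrix were 11 higher and 4 lower of 24 tested (32 in the list, median 0.13), against 15 higher and 2 lower in controls (median 0.29), with the difference above 0 in 4 and below 0 in 5. Thbs1, which encodes thrombospondin, had 285, 299.7, 297 and 286 CPM at 25 h, against 109.6, 107, 107 and 106 CPM at 17 h, a log2 fold change of 1.44 ± 0.04 (SE; edgeR adjusted p = 1.8e-22). The change in controls was 0.45 and the difference 0.99 ± 0.05 (edgeR adjusted p = 6.45e-15). The collagen gene Col12a1 was higher by 0.89 and the lysyl oxidase gene Loxl2 by 0.66, against 0.65 in controls.

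Genes of the cell cycle were lower at 25 h in both treatments. Of 34 S phase genes, all tested, 31 were lower and none higher in DEX cells (median -0.49) and 32 lower in controls (median -0.52), with the difference above 0 in 2 and below 0 in 1. Of 32 genes of G2 and mitosis, 31 were lower in DEX cells (median -0.68) and 31 in controls (median -0.62), with the difference below 0 in 1. Cyclin B1 (Ccnb1) had 47.2 to 60.3 CPM at 25 h, against 95.7 to 107 CPM at 17 h, a log2 fold change of -0.96 ± 0.06 (SE; edgeR adjusted p = 1.44e-14), beside -0.97 in controls. Plk1, a kinase gene of mitosis, fell by 0.96, Aurka by 0.90 and the spindle factor gene Tpx2 by 0.72, on the log2 scale. The helicase gene Mcm3 had a log2 fold change of -0.63, the licensing factor gene Cdt1 of -0.58 and the chromatin assembly gene Chaf1a of -0.69. Rrm2, which encodes a subunit of ribonucleotide reductase, was the S phase gene whose difference lay below 0, with 79.0, 76.2, 78.7 and 104 CPM at 25 h, against 209, 232, 214 and 209.9 CPM at 17 h, a log2 fold change of -1.36 ± 0.08 (SE; edgeR adjusted p = 2.25e-10), against -0.69 in controls.

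The p53 targets had 10 higher and 6 lower of 23 (median 0.06), against 12 higher and 3 lower in controls (median 0.13), with the difference above 0 in 4 and below 0 in 6. Beside these counts stand 27.8% higher and 28.2% lower over all tested genes in DEX cells. Pmaip1, which encodes the death factor NOXA, had 138, 146, 158 and 134 CPM at 25 h, against 63.4, 69.0, 61.7 and 71.8 CPM at 17 h, a log2 fold change of 1.11 ± 0.06 (SE; edgeR adjusted p = 4.64e-16). The death receptor gene Fas was higher by 0.95 and Bbc3, which encodes PUMA, by 0.68. The exonuclease gene Aen fell by 0.54 on the log2 scale.

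Cholesterol synthesis was lower. Of 25 genes, all tested, 20 were lower and none higher in DEX cells (median -0.42) and 19 in controls (median -0.23), with the difference above 0 in 1 and below 0 in 9. Mvk, mevalonate kinase, had 26.9, 27.8, 27.8 and 30.0 CPM at 25 h, against 54.2, 51.5, 56.3 and 49.8 CPM at 17 h, a log2 fold change of -0.91 ± 0.06 (SE; edgeR adjusted p = 2.36e-14), against -0.52 in controls. Lss, lanosterol synthase, fell by 0.78, the sterol reductase gene Tm7sf2 by 0.74 and Hsd17b7 by 0.97, on the log2 scale. Genes of fatty acid synthesis and storage had 3 higher and 13 lower of 21 tested (24 in the list, median -0.19), against 2 and 11 in controls (median -0.09), with the difference above 0 in 1 and below 0 in 2. The elongase genes Elovl5 and Elovl6 had log2 fold changes of -0.55 and -0.65. Malic enzyme (Me1) was higher in DEX cells at 0.31 ± 0.04 and lower in controls at -0.09, with a difference of 0.40 ± 0.05 (edgeR adjusted p = 9.11e-07).

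The list of PPAR and fatty acid oxidation had 4 higher and 6 lower of 16 tested (24 in the list, median 0.04), against 3 and 4 in controls (median 0.00), with the difference above 0 in 1 and below 0 in 3. Shares over all tested genes in DEX cells were 27.8% higher and 28.2% lower. Ppara, which encodes the nuclear receptor of fatty acids in liver, had 1.41, 1.56, 1.37 and 2.81 CPM in the DEX 25 h libraries, against 8.59, 7.92, 7.75 and 9.63 CPM in the DEX 17 h libraries, a log2 fold change of -2.25 ± 0.16 (SE; edgeR adjusted p = 4.95e-13) with replicate 4 the highest of 25 h. Control cells had 1.01, 1.15, 1.17 and 1.16 CPM in the control 25 h libraries, against 1.16, 0.844, 0.971 and 1.22 CPM in the control 17 h libraries, which overlap, and the difference was -2.34 ± 0.30 (edgeR adjusted p = 1.01e-06). Cpt1a, the gate of fatty acid entry into mitochondria, fell by 0.41 on the log2 scale.

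Genes of the integrated stress response and the unfolded protein response fell in DEX cells. All 36 were tested, with 1 higher and 30 lower (median -0.48), against 3 and 23 in controls (median -0.24), and the difference was below 0 in 16 and above 0 in none. The ATF4 branch, which raises amino acid supply under stress, had 14 of 17 lower (median -0.99) and the difference below 0 in 12. Of the 19 chaperones and sensors, 16 were lower (median -0.38) and the difference was below 0 in 4. Atf4 itself, named after its values were seen, had 175, 177, 172 and 165 CPM at 25 h, against 293, 334, 306 and 282 CPM at 17 h, a log2 fold change of -0.82 ± 0.05 (SE; edgeR adjusted p = 3.34e-15), against -0.10 in controls (edgeR adjusted p = 0.0741). Asparagine synthetase (Asns) had 78.7, 82.2, 81.6 and 91.1 CPM at 25 h, against 198, 211, 202 and 199 CPM at 17 h, a log2 fold change of -1.28 ± 0.05 (SE; edgeR adjusted p = 5.32e-19). Psat1 of serine synthesis fell by 1.25 and Shmt2 of glycine synthesis by 1.12 on the log2 scale, each by more than in controls (-0.62 and -0.44). Slc7a11, the cystine importer, was among the 15 largest falls with 6.22, 5.89, 5.40 and 6.47 CPM at 25 h, against 26.4, 30.5, 30.1 and 27.4 CPM at 17 h, a log2 fold change of -2.25 ± 0.08 (SE; edgeR adjusted p = 5.32e-19), but controls fell to 4.74 to 6.07 CPM at 25 h, against 19.9 to 22.8 CPM at 17 h, and the difference of -0.29 ± 0.13 (edgeR adjusted p = 0.136) did not pass the test.

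Ribosome biogenesis had 3 higher and 19 lower of 25 genes (median -0.24), against 3 and 10 in controls (median -0.07), with the difference below 0 in 12 and above 0 in none. The nucleolar protein genes Nolc1 and Nop56 had log2 fold changes of -0.91 and -0.81 in DEX cells, beside -0.41 and -0.40 in controls, and Rrs1 -0.81 beside -0.23. The defence genes of NRF2 and glutathione had 6 higher and 10 lower of 23 tested (25 in the list, median -0.18), against 1 and 15 in controls (median -0.17), with the difference above 0 in 7 and below 0 in 3. Gclc, the catalytic subunit of the first enzyme of glutathione synthesis, had 272, 268, 281 and 298 CPM at 25 h, against 841, 795, 798 and 805 CPM at 17 h, a log2 fold change of -1.53 ± 0.04 (SE; edgeR adjusted p = 2.51e-22). Its controls changed by -0.51, a difference of -1.02 ± 0.06 (edgeR adjusted p = 4.11e-14). G6pdx, which supplies NADPH, fell by 1.15 on the log2 scale.

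Glycolysis and the hypoxia response were 14 higher and 3 lower of 30 in DEX cells (median 0.07) and 15 and 3 in controls (median 0.13), with the difference above 0 in 2 and below 0 in 7. Without replicate 2 of 17 h, 6 were lower, as also without both libraries that stood apart. Ankrd37 was higher by 0.95 in DEX cells and 0.82 in controls, the prolyl hydroxylase gene P4ha2 by 0.58 and 0.61, and Ndrg1 by 0.56 and 0.81. Of 28 nuclear genes of the respiratory chain, 15 were lower in DEX cells (median -0.12) and 11 in controls (median -0.11), with none higher and no difference called. With a replicate block, or without replicate 1 of 17 h, 1 gene of the chain was higher in DEX cells. Of its genes, Atp5d of ATP synthase fell by 0.36 and Cyc1 of complex III by 0.37 on the log2 scale. Without replicate 2 of 17 h, their differences of changes were called, at -0.22 and -0.20 (edgeR adjusted p of 0.0049 and 0.0064). The same held without both libraries that stood apart (0.0019 and 0.0041). For Atp5d the difference was also called without replicate 4 of control 25 h (0.0408), replicate 1 of DEX 25 h (0.0352) or replicate 4 of DEX 25 h (0.0334). Of 13 mitochondrially encoded genes, 12 were tested and 2, mt-Nd1 and mt-Nd2, were lower, at -0.72 and -0.68 (median of the list -0.21), beside 4 lower in controls (median -0.27). That count was 5 in limma-voom and 7 without replicate 3 of 17 h. For mt-Nd1 the values were 1143, 1194, 1328 and 1258 CPM at 25 h, against 1826, 2914, 1548 and 1843 CPM at 17 h, where replicate 2 of 17 h was the highest.

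Heat shock proteins had 6 higher and 7 lower of 18 tested (20 in the list, median 0.00), against 9 and 3 in controls (median 0.12), with the difference above 0 in 1 and below 0 in 3. Hsp90aa1, a chaperone of steroid receptors, fell by 0.53 on the log2 scale, against -0.07 in controls, while the collagen chaperone gene Serpinh1 was higher by 0.46. Autophagy and lysosome genes had 4 higher and 10 lower of 25 (median -0.06), against 6 and 8 in controls (median 0.00), with the difference above 0 in 1 and below 0 in 5. The autophagy receptor gene Sqstm1 was higher by 0.48 and the protease gene Ctsb fell by 0.51 on the log2 scale.

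Secreted liver proteins went in both directions, as did tested genes as a whole (27.8% higher and 28.2% lower in DEX cells). Acute-phase and complement genes had 7 higher and 4 lower of 12 tested (24 in the list, median 0.17), against 3 and 4 in controls (median 0.01), with the difference above 0 in 5 and below 0 in 3. Orm1, the acute-phase protein orosomucoid, had 3.11, 2.66, 2.30 and 4.27 CPM in the DEX 25 h libraries, against 14.3, 15.6, 12.1 and 13.5 CPM in the DEX 17 h libraries, a log2 fold change of -2.17 ± 0.14 (SE; edgeR adjusted p = 2.14e-13). In controls it had 1.01, 1.40, 1.97 and 2.08 CPM in the control 25 h libraries, against 0.898, 1.10, 1.03 and 1.28 CPM in the control 17 h libraries, and the difference was -2.76 ± 0.29 (edgeR adjusted p = 2.98e-08); its paralogs can share reads. Haptoglobin (Hp) had 8.68, 8.66, 9.81 and 10.0 CPM at 25 h, against 25.0, 20.0, 22.0 and 26.0 CPM at 17 h, a log2 fold change of -1.32 ± 0.09 (SE; edgeR adjusted p = 2.57e-13). The complement genes C3 and C1s1 were higher in DEX cells, by 0.57 and 0.40, and C1s1 was lower in controls at -0.27. Secreted hepatokines had 6 higher and 6 lower of 14 tested (29 in the list, median -0.03), against 6 and 4 in controls (median 0.15), with the difference above 0 in 1 and below 0 in 2. Angiotensinogen (Agt) had 11.9, 10.4, 10.4 and 5.49 CPM at 25 h, against 1.21, 1.71, 1.28 and 1.67 CPM at 17 h, a log2 fold change of 2.70 ± 0.22 (SE; edgeR adjusted p = 3.67e-09), beside 1.77 in controls. Of the binding proteins of insulin-like growth factors, Igfbp4 was higher by 0.50 and Igfbp3 fell by 1.05 on the log2 scale.

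Markers of cell identity were described in the same way. Of 9 hepatocyte markers tested, 3 were higher and 1 lower (median 0.35), against 1 and 0 in controls, with the difference above 0 in 2 and below 0 in 1; without replicate 1 of 17 h, 2 were lower. The hepatocyte factor gene Hnf4a was among those higher, and it had 237, 237, 230.1 and 245 CPM at 25 h, against 145, 139.8, 155 and 152 CPM at 17 h, a log2 fold change of 0.68 ± 0.04 (SE; edgeR adjusted p = 2.3e-14), against 0.04 in controls. Of 5 bile duct markers tested, 2 were higher and 2 lower (median -0.10), against 4 higher in controls, with the difference above 0 in 1 and below 0 in 2. The count lower was 1 without replicate 3 or replicate 4 of 25 h and in a fit of the 8 DEX libraries alone. The keratin gene Krt7 had 473, 456, 455 and 519.7 CPM at 25 h, against 593, 553, 616 and 574 CPM at 17 h, a log2 fold change of -0.30 ± 0.04 (SE; edgeR adjusted p = 8.58e-07), but was higher in controls at 0.28. Krt19 fell by 0.10 on the log2 scale (edgeR adjusted p = 0.0354), a call lost in a fit of the 8 DEX libraries alone (0.0925) and without replicate 3 of 17 h (0.146), replicate 3 of 25 h (0.0931) or replicate 4 of 25 h (0.0631). Spp1, which encodes osteopontin, was higher by 0.85.

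Of 4 mesenchymal markers tested, 1, under 1 CPM in all DEX libraries, was higher in DEX cells and none in controls (medians 0.37 and -0.04), with no difference called. The count higher in DEX cells was 2 without replicate 1 of 17 h or replicate 1 of 25 h, and 3 without replicate 3 of 25 h. It was 0 without both libraries that stood apart and in a fit of the 8 DEX libraries alone. Without the low-count filter, 2 members were higher and 1 lower. Vim did not pass the test at -0.01. Of 2 immune markers tested, 1 was higher and 1 lower (median 0.31), beside 1 lower in controls, with the difference above 0 in 1. Csf1r, the receptor of CSF1, had 9.92, 11.3, 11.3 and 11.4 CPM at 25 h, against 3.81, 5.64, 4.51 and 4.44 CPM at 17 h, a log2 fold change of 1.25 ± 0.11 (SE; edgeR adjusted p = 6.96e-11). Csf1r overlaps the counted gene Hmgxb3, and reads of the pair cannot be told apart here. Of 2 endothelial markers none was called (median 0.39), although 1 was higher without replicate 2 of 17 h, replicate 3 of 17 h or replicate 4 of 25 h. The same held without both libraries that stood apart. Of 2 cardiomyocyte markers (median 0.26), Tnnt2 was higher by 0.29, with no call in controls and no difference called. The Tnnt2 difference was called with total counts only, at 0.25 (edgeR adjusted p = 0.0259). It was also called without replicate 4 of control 17 h (0.0414) or replicate 3 of DEX 17 h (0.0481).

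**Figure D4:**
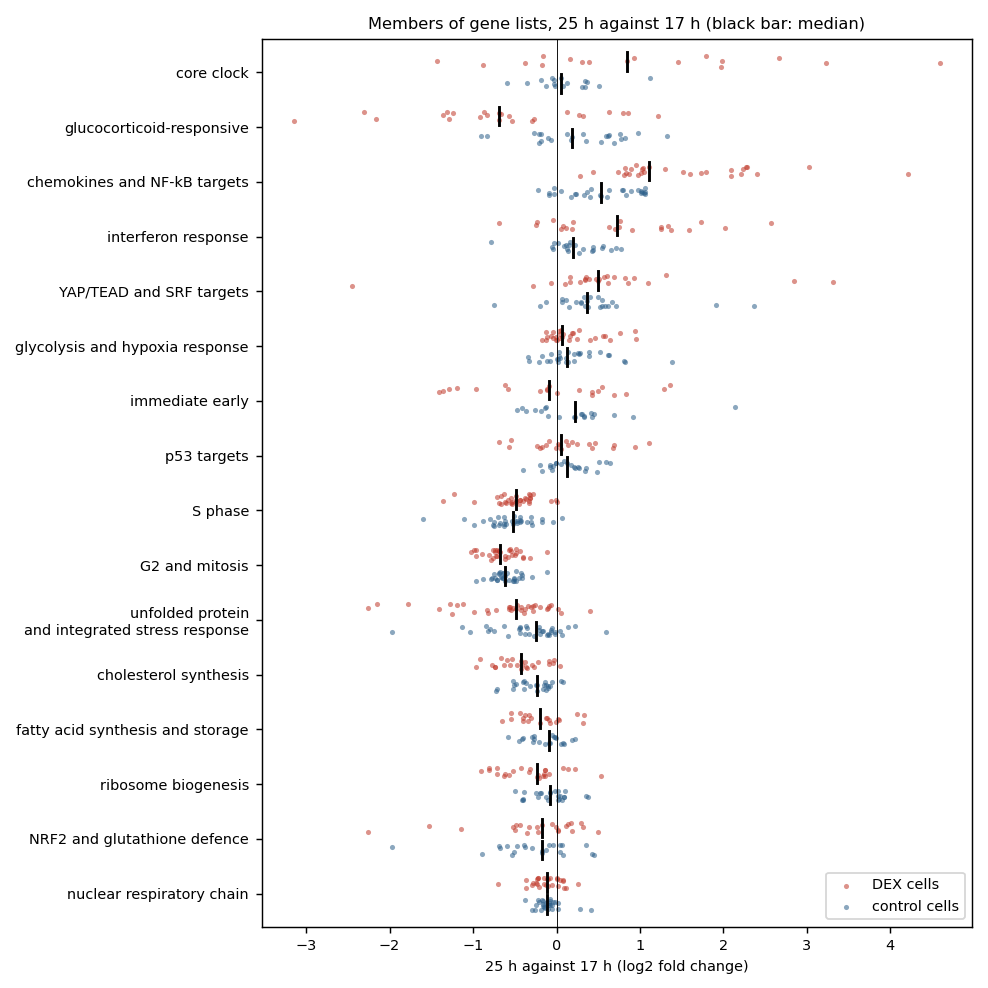
Log2 fold change (25 h over 17 h, horizontal axis) of each tested member of 16 gene lists, in DEX cells (red, upper strip) and in control cells (blue, lower strip); each point is 1 gene and the black bar is the median of the list, and Zbtb16 is not drawn. NF-kB targets have a median of 1.11 in DEX cells and 0.54 in controls, glucocorticoid-responsive genes -0.69 and 0.19, and genes of G2 and mitosis -0.68 and -0.62.

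Several of the largest rises and falls lay outside the lists. Endou, an endoribonuclease gene, was higher by 3.18 ± 0.24, Vwa5b1 by 2.85 ± 0.25, Myh15 by 2.71 ± 0.42 and Slc13a4, a sulfate transporter gene, by 2.31 ± 0.36. All of these rest on few counts. Over the DEX libraries of 25 h and of 17 h, Endou had 181 and 19 counts and Vwa5b1 189 and 25. Myh15 had 77 and 11, and Slc13a4 had 89 and 17. Endou changed by 1.69 in controls, Vwa5b1 by 0.35 and Myh15 by -0.13, on the log2 scale. Clca3b, which has close paralogs that can share reads, was higher by 3.09 ± 0.34, against 1.53 in controls. Netrin 1 (Ntn1) had 4.58, 5.89, 4.29 and 3.42 CPM at 25 h, against 0.786, 0.697, 0.854 and 0.679 CPM at 17 h, a log2 fold change of 2.58 ± 0.19 (SE; edgeR adjusted p = 1.8e-12), against 0.25 in controls (edgeR adjusted p = 0.108). Extl1, which encodes a glycosyltransferase of heparan sulfate, had 0.293, 0.289, 0.373 and 0.183 CPM at 25 h, against 6.35, 5.96, 6.77 and 5.86 CPM at 17 h, a log2 fold change of -4.42 ± 0.20 (SE; edgeR adjusted p = 3.24e-17), against -1.24 in controls.

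The hedgehog ligand gene Ihh had 3.64, 4.56, 4.35 and 6.41 CPM at 25 h, against 33.2, 32.1, 32.4 and 31.2 CPM at 17 h, a log2 fold change of -2.77 ± 0.11 (SE; edgeR adjusted p = 5.45e-18). Its controls changed by -0.94, a difference of -1.82 ± 0.19 (edgeR adjusted p = 2.8e-08). Foxred2 had 13.2, 12.4, 11.1 and 15.3 CPM at 25 h, against 76.7, 97.2, 76.4 and 85.1 CPM at 17 h, a log2 fold change of -2.69 ± 0.08 (SE; edgeR adjusted p = 3.17e-19), against -0.47 in controls. The mitochondrial carrier gene Slc25a48 had 24.1, 24.1, 24.0 and 34.7 CPM at 25 h, against 151, 135, 151 and 147 CPM at 17 h, a log2 fold change of -2.45 ± 0.09 (SE; edgeR adjusted p = 1.86e-15). Sult1a1, a sulfotransferase gene that is in the glucocorticoid-responsive list, had 1.58, 1.50, 1.74 and 4.46 CPM at 25 h, against 12.7, 11.2, 9.33 and 12.8 CPM at 17 h, a log2 fold change of -2.31 ± 0.25 (SE; edgeR adjusted p = 6.17e-07) in which replicate 4 was the highest of 25 h. Its control libraries stayed between 0.195 and 1.42 CPM. Kif17, a kinesin gene, had 19 counts over the DEX libraries of 25 h and 199 over those of 17 h, a log2 fold change of -3.40 ± 0.30, with 10 counts at control 25 h and 9 at control 17 h. The somatostatin receptor gene Sstr3 had 5 counts at 25 h and 77 at 17 h, a log2 fold change of -3.86 ± 0.51, and it was -2.62 for Vmn1r40 and -2.61 for Pkd1l2. Vmn1r40 had 13 counts at DEX 25 h and 80 at DEX 17 h, and Pkd1l2 had 16 and 97. For Pkd1l2 the difference of changes, -1.44 ± 0.73 (edgeR adjusted p = 0.197), did not pass the test. Apol8 fell in both treatments, at -3.46 in DEX cells and -3.44 in controls, a difference of -0.02 ± 0.75 (edgeR adjusted p = 0.993), and Vmn1r40, Apol8 and Sult1a1 have paralogs that can share reads.

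Most genes called in controls were also called in DEX cells, in separate libraries. Of the 3919 genes higher in DEX cells, 2395 (61.1%) were also higher in controls, which is 76.8% of the genes higher there, and 498 of them had a called difference. Of the 3977 lower in DEX cells, 2330 (58.6%) were also lower in controls, 77% of those lower there, and 343 had a called difference. Higher in DEX cells and not called in controls were 1463 genes (37.3%), of which 451 had a called difference, and lower in DEX cells and not called in controls 1521 (38.2%), of which 499 did. The remaining calls ran in opposite directions, with 126 genes lower in DEX cells and higher in controls, and 61 higher in DEX cells and lower in controls. Adam12, a metalloprotease gene of cell surfaces, had 17.5, 17.4, 18.0 and 24.6 CPM in the DEX 25 h libraries, against 51.2, 54.4, 54.9 and 47.1 CPM in the DEX 17 h libraries, and 10.6, 11.7, 13.3 and 11.3 CPM in the control 25 h libraries, against 6.61, 6.23, 5.83 and 6.34 CPM in the control 17 h libraries. Its difference of -2.33 ± 0.14 (edgeR adjusted p = 1.12e-12) was among the 8 largest below 0.

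**Figure D5:**
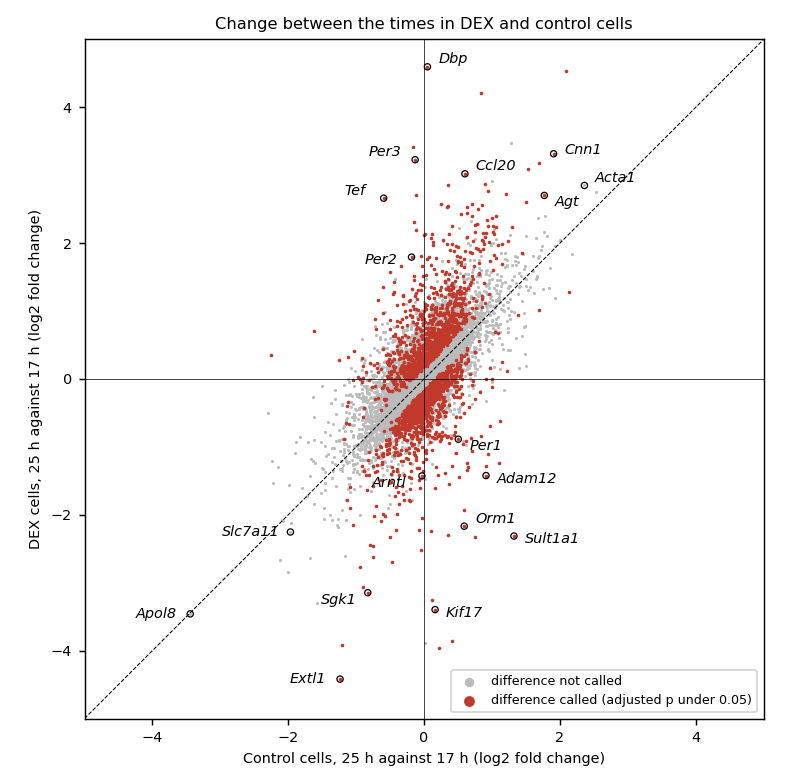
Log2 fold change between the times (25 h over 17 h) in DEX cells (vertical axis) against control cells (horizontal axis), with 1 point per tested gene, red where the difference of changes passed an adjusted p of 0.05, and the dashed line marking equal change; Zbtb16, with 0 counts in controls, is not drawn. Dbp, Per3 and Tef lie high near the vertical axis, Ccl20 above the dashed line, Sgk1 and Extl1 below it, Per1, Orm1, Sult1a1 and Adam12 lie in the quadrant that is lower in DEX cells and higher in controls, and Apol8 and Slc7a11 lie near the line.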

How the data were processed

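The AML12 table deposited by the authors holds whole-number read counts per gene, not normalized, as its differing totals show, with 1 column per library and 0 sample columns left unmapped. Per the submitters' processing notes, reads were checked with FastQC 0.11.8 and STAR was used; the builds named there are mm10 and GRCm38. Total RNA was extracted with TRIzol, and an NEBNext Ultra II kit was used for the libraries, per the labels' protocols. What program counted the reads, with which strand setting and annotation, is not given in the sources used here. Gene positions come from GENCODE M21 (GRCm38), which holds 99.8% of the IDs, and promoters from RefSeq.

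After filterByExpr and TMM scaling, edgeR 4.0.16 (R 4.3.3) fitted 1 mean per group over all 16 AML12 libraries, with a two-sided quasi-likelihood test. The contrasts were 25 h against 17 h in DEX cells, the same in controls, and their difference. A gene was called where p, adjusted by Benjamini-Hochberg across every gene in the fit, was under 0.05. The SE is the log2 fold change over the root of F, and CPM uses TMM-scaled totals. In 5 simulations with 200 changed genes each, on 13942 genes in the first, 75.5% of genes changed by 0.5 on the log2 scale were found in DEX cells and 90.7% of those changed by 1, with 5.03% false among calls. Those simulations changed 200 genes where 7896 were called in the data, and they held no library that stood apart. Their shares of genes found and of false calls therefore need not hold for these data.

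The 31 gene lists, the libraries compared and the rules were chosen with earlier results of these data known, and lists are described by counts and medians, with no set test. The rule for named genes took the 15 largest rises and 15 largest falls among called genes with libraries that do not overlap, at least 1 CPM in a group and a proper symbol, the core clock genes in the table, up to 4 genes of each other list by smallest p, and the 8 largest differences in each direction. It gave 151 genes; 125 are in the text, with 4 more (Tsc22d3, Klf9, Zfp36 and Atf4) picked after their values were seen. Neighbours that overlap clock genes or Csf1r, marker genes given by their level and Cxcl16 are named beside these. Of the 129 named genes, 51 overlap another counted gene. A few genes the rule gave are not reported here. Reads are not independent molecules, so limits from counts cover counting error only. Alternatives were RLE factors, scaling by totals, keeping all low genes, a replicate block, DESeq2 1.42.0, voom with limma 3.58.1, the 8 compared libraries alone, leaving out each library, and leaving out both libraries that stood apart.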

Additional observations from a re-analysis of the deposited data

Results flagged for a closer look

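In 258 groups of 4 DEX libraries (25 h and 17 h for each of 129 genes), a library's gap to the nearest, as a share of the group's whole range, passed Dixon's test in 26 (10.1%), where chance gives about 1 in 20 groups. Of these, 16 were replicate 4 of 25 h, 14 of them on the side of the 17 h libraries. Replicate 2 of 17 h gave 4.

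Replicate 4 of 25 h was high among genes that were lower at 25 h. It had 34.7 CPM of Slc25a48, 4.46 of Sult1a1, 2.81 of Ppara, 15.8 of Arntl, 104 of Rrm2 and 97.3 of Tpx2. It also had 65.4 CPM of Tm7sf2, 417 of Psat1 and 24.6 of Adam12. Among genes that were higher at 25 h it was low, with 5.37 CPM of Cnn1, 128 of Ccl20, 12.1 of Parp14, 148 of Nuak2 and 1871 of C3. It lay away from the 17 h libraries for Nr1d1, at 52.5 CPM, and for Aen, at 43.7 CPM.

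Replicate 2 of 17 h had 314 CPM of Fkbp5, 318 of Me1, 1081 of Spp1 and 1567 of mt-Nd2. The remaining 6 were replicate 2 of 25 h for Btrc (92.1 CPM), replicate 3 of 25 h for Cpt1a (143 CPM) and Shmt2 (74.3 CPM), replicate 1 of 25 h for Csf1r (9.92 CPM), replicate 4 of 17 h for Birc3 (69.5 CPM) and replicate 3 of 17 h for C3 (1497 CPM).

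In 91 of the 129 genes the change in DEX cells differed from the change in control cells by edgeR's test of the difference (adjusted p of 0.05), above 0 in 45 and below 0 in 46. These genes were chosen partly for that difference, so their number is no measure of how common it is. Among clock genes the difference (log2) was 4.55 for Dbp, 3.36 for Per3, 3.26 for Tef, 1.98 for Per2, 1.84 for Nr1d2 and 1.64 for Nr1d1. It was 0.99 for Cry2, 0.66 for Cry1, -1.40 for Arntl, -1.39 for Per1, -0.68 for Nfil3 and -0.24 for Clock. Of their outputs and modifiers, Usp2 had -1.04, Por -0.20, Tspan4 0.66 and Btrc 0.21. The call for Por was lost with total counts only (edgeR adjusted p = 0.104) and without replicate 2 or 3 of control 17 h, replicate 2 of control 25 h or replicate 1, 2 or 3 of DEX 25 h (0.0508 to 0.0717). That for Clock was lost with total counts only (0.0535) and without replicate 2 of control 17 h (0.0509).

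Glucocorticoid-responsive genes differed downwards, by -3.64 for Sult1a1, -2.76 for Orm1, -2.32 for Sgk1, -1.67 for Zfp36 and -1.53 for Tsc22d3. Fkbp5 had -1.21, Dusp1 -1.17, Klf9 -1.14 and Hsp90aa1 -0.47. Chemokine and NF-kB genes differed upwards, by 2.42 for Ccl20, 1.49 for Vcam1, 1.39 for Cxcl5, 1.10 for Ppbp, 0.76 for Csf1 and 0.74 for Birc3. So did interferon-inducible genes, by 1.97 for Tgtp1, 1.86 for Gbp3, 1.32 for Gbp2, 0.84 for Parp14 and 0.32 for Ddx58. The call for Ddx58 was lost without replicate 2 or 4 of control 17 h, replicate 1 or 4 of control 25 h, replicate 1 of DEX 17 h or replicate 3 of DEX 25 h (edgeR adjusted p of 0.0625 to 0.0767).

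For targets of YAP and SRF the difference was 1.41 for Cnn1, 0.91 for Ankrd1, 0.58 for Cyr61, 0.47 for Tpm1, 0.38 for Nuak2 and -1.70 for Ctgf. Matrix and early genes had 0.99 (Thbs1), 0.51 (Spp1), 0.48 (Col12a1), 0.93 (Ier3) and -1.04 (Fosl1). Among p53 targets and S phase genes it was 0.72 for Fas, 0.60 for Pmaip1, -0.50 for Aen and -0.67 for Rrm2. Stress response genes had -0.71 (Atf4), -0.68 (Shmt2), -0.62 (Psat1) and -0.53 (Asns), and nucleolar genes -0.58 (Rrs1), -0.50 (Nolc1) and -0.41 (Nop56).

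In metabolism, Ppara had -2.34, Gclc -1.02, G6pdx -0.46, Elovl5 -0.42, Mvk -0.40, Lss -0.38 and Cpt1a -0.21, while Me1 had 0.40. Ndrg1 had -0.25, Ctsb -0.20 and Sqstm1 0.28. Among secreted proteins and identity markers, Csf1r had 1.07, Agt 0.93, C1s1 0.67, Hnf4a 0.64 and C3 0.26. Hp had -0.92, Krt7 -0.57 and Krt19 -0.37. Outside the lists the values above 0 were 2.84 for Myh15, 2.51 for Vwa5b1, 2.46 for Slc13a4, 2.33 for Ntn1, 1.56 for Clca3b and 1.49 for Endou. Those below 0 were -4.26 for Sstr3, -3.56 for Kif17, -3.18 for Extl1, -2.33 for Adam12, -2.22 for Foxred2, -1.87 for Vmn1r40, -1.82 for Ihh and -1.66 for Slc25a48.

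Some of these calls depended on the setting. The difference for Agt was lost with a replicate block (edgeR adjusted p = 0.0730), in limma-voom (0.0690) and without any 1 library (0.0530 to 0.0956) other than replicates 2 and 3 of control 17 h and replicate 4 of control 25 h and of DEX 25 h. That for Vmn1r40 was lost with a replicate block (0.0565), with total counts only (0.0532), without the low-count filter (0.123) and without both libraries that stood apart (0.0805). It was also lost without any 1 library (0.0504 to 0.157) other than replicate 1 of control 17 h, replicate 2 of control 25 h, replicates 2 and 3 of DEX 17 h and replicate 3 of DEX 25 h. Clca3b lost the call without replicate 1 (0.0608) or replicate 4 (0.0551) of DEX 17 h, Sstr3 without replicate 4 of control 25 h (0.0537) and Ctsb with total counts only (0.0787).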

How the results depend on the processing

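The counts of higher and lower genes in DEX cells stayed within 1.5 times under every alternative run, from 3577 higher and 3578 lower with the 8 DEX libraries alone to 3957 and 4152 without replicate 2 of 17 h. No source used here says that a replicate number ties libraries of different times together. Deviations of same-numbered DEX libraries from their group means correlated at 0.0057, 0.0029, -0.051 and -0.0032, and those of control libraries at 0.068, -0.024, -0.026 and -0.016. With so few libraries per group, these values cannot decide whether a number stands for a shared culture or day. With a replicate block, 3901 genes were higher and 3971 lower in DEX cells, and the difference of changes was above 0 in 1079 and below 0 in 1159. DESeq2 gave 3668 and 3828, limma-voom 3957 and 3938, and RLE factors 3870 and 4030. Without the low-count filter 3936 genes were higher and 4069 lower.

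Of the 129 genes named, 4 changed side of the threshold in DEX cells under some setting and 16 did so in the difference of changes, and no value reversed. Zbtb16 is among the 16, but its controls had 0 counts, so a fitted difference holds only the DEX change and is not given. For marker lists of 9 tested genes or fewer, 1 gene more or less moves a count past 1.5 times. Genes of few counts, such as Sstr3 and Kif17, are limited by depth.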
